A study of Neurospora crassa with 18 samples.

Results

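In *Neurospora crassa*, 3-aminotriazole (3-AT) blocks histidine synthesis and starves the mycelium of that amino acid. Described here are 11 genes whose mRNA level in 2% glucose medium was lowered by 3-AT both in the wild type (WT) and in *cpc-1Δ*, the strain that lacks the bZIP transcription factor CPC-1. They were selected on measured values. Each had to be above 0 and at a mean of at least 10 in the 15 WT and *cpc-1Δ* libraries. The group mean with 3-AT had to be at most 0.5 times the mean without it in each strain, and the WT mean in 0.1% glucose medium above 0.5 times that in 2% glucose medium. Of 9730 genes measured, 4074 passed the filter on low values, and 11 met the limits, so that the planned ceiling of 200 genes was not reached. The fall with 3-AT is therefore how the genes were chosen, and it is given as a description with no test.

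mRNA abundance was given as RPKM (reads normalized to transcript length and library size) in 18 libraries of 7 groups, all from mycelia grown from conidia at room temperature in constant light. WT was FGSC4200, and *cpc-1Δ* came from the *Neurospora* knockout library. For both, the labels give libraries from medium with 2% glucose (3 WT and 2 *cpc-1Δ*), from the same medium after 8 h of 5 mM 3-AT (3 and 3), and from medium with 0.1% glucose and 0.17% arginine (2 and 2). A further strain, *cpc-1Δ*, *cpc-1*(WT), here called the transgenic strain, carries in the *cpc-1Δ* background a Flag-tagged *cpc-1* gene with its native codons at the *csr-1* locus, driven by the *ccg-1* promoter and 5′ UTR, and was measured only with 3-AT (3 libraries). No group had 3-AT in 0.1% glucose medium, and the low-glucose medium also differed by its arginine. Nothing in the labels says that libraries of a group came from separate cultures, so that *P* values measure only the spread between these libraries.

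Starvation for a single amino acid raises the genes of many amino acid pathways in *Neurospora*, a response called cross-pathway control, and CPC-1 is its transcription factor, as GCN4 is in *Saccharomyces cerevisiae*. Amino acids also enter the hypha from the medium through permeases of the plasma membrane, of which the general permease takes up most of them. A bulk library cannot tell fewer cells that express a gene from less mRNA in each cell.

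Levels are given as scaled RPKM, that is RPKM divided by the library's median ratio to the geometric mean of the 15 WT and *cpc-1Δ* libraries. RPKM sums ran from 258726 to 546387 and the scaling factors from 0.663 to 1.34, lowest in WT with 3-AT (0.663 to 0.703) and highest in the groups of 2 libraries (1.31 to 1.34). In WT and *cpc-1Δ*, the groups of 3 libraries had sums of 258726 to 370927 and the groups of 2 had 515150 to 546387. A group of 3 stands beside a group of 2 in the *cpc-1Δ* 3-AT ratio, the WT low-glucose ratio and *cpc-1Δ* against WT in 2% glucose. In these, medium or strain cannot be told apart from whatever else set the 2 kinds of group apart. The depth is unknown because the files hold no counts, and between 1724 and 2031 genes were listed at 0 in a library, which was not read as absence. *cpc-1* stood at 319 to 1691 in the WT libraries, at 1.81 to 3.82 in *cpc-1Δ* and at 60.6 to 70.4 in the transgenic strain, as the strain labels say. β-tubulin (*Bml*) had means between 240.4 and 411. All 6 conidiation markers listed for these cultures were in the files, and *con-6* was at 0 in all libraries with 2% glucose. The summed scaled RPKM of these markers was 52.3 to 651 in WT in 2% glucose, 3328 to 3482 in WT with 3-AT, 324 to 327 in WT in 0.1% glucose, 120 to 135, 61.3 to 129 and 73.9 to 75.8 in the same media in *cpc-1Δ*, and 697 to 726 in the transgenic strain. Most of the sum in WT with 3-AT came from *eas*, at 3274 to 3423 beside 0 to 600 in WT in 2% glucose. In the transgenic strain *eas* was at 612 to 651. The other markers did not rise alike in WT with 3-AT. *con-10* had means of 2.05 without and 6.28 with 3-AT, *con-8* 28.1 and 26.1, *fl* 21.4 and 23.2 and *con-13* 0.342 and 0.349. The part of these markers in the results was not tested.

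The lowered genes of the 2 strains were mostly not the same. Of the 4074 genes, 226 (5.55%) were at 0.5 or less with 3-AT in WT and 91 (2.23%) in *cpc-1Δ*, and 13 (0.319%) were in both sets. These 13 are 5.75% of the WT set and 14.3% of the *cpc-1Δ* set. Across the 4074 genes, the Spearman rho between the 3-AT ratios of the 2 strains was 0.12, a description over genes, which are not independent. The low-glucose limit removed 2 of the 13, the copper transporter gene *tcu-1* (NCU00830), with ratios of 0.354 in WT and 0.312 in *cpc-1Δ*, and the gene next to it, NCU00829. Both were lower in 0.1% than in 2% glucose medium in each strain. Over the 11 genes, the median ratio was 0.352 in WT and 0.411 in *cpc-1Δ*, beside 0.997 and 0.977 over all genes that passed the filter. In values as deposited, which were not scaled further, the 11 ratios were 0.0356 to 0.380 in WT and 0.0917 to 0.354 in *cpc-1Δ*. Scaling factors were lower with 3-AT than without it in both strains, so that the ratios of all genes are lower on that scale. This is therefore no result about the 11, and 111 genes met the rule there. The overlap of the 2 sets given above is that of scaled values.

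**Figure D1:**
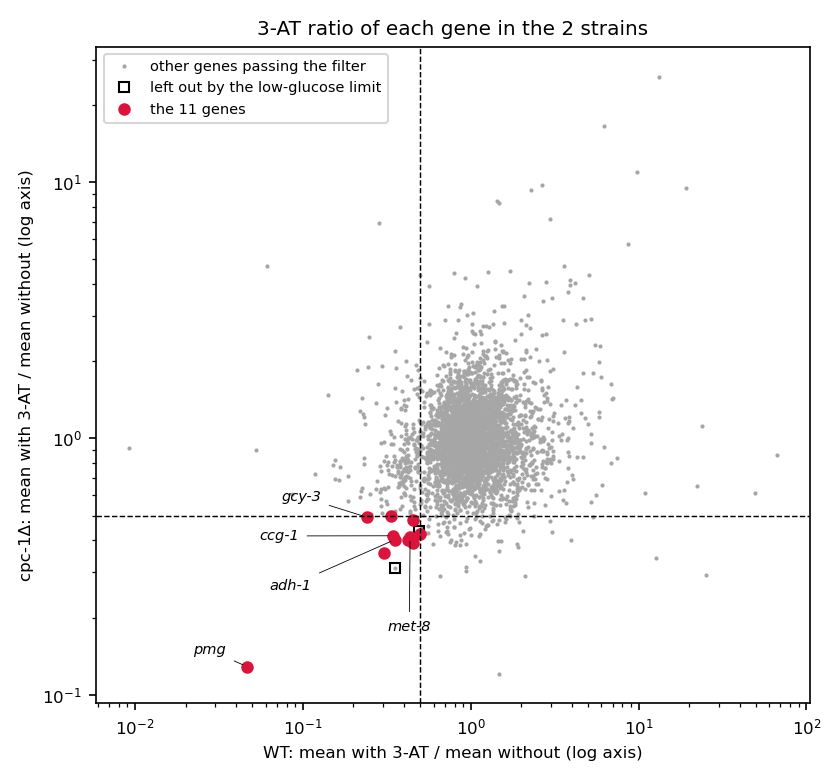
Group mean with 3-AT divided by the mean without it, for each of the 4074 genes that passed the filter, in WT (x axis) and *cpc-1Δ* (y axis), both on log axes without unit. Dashed lines mark the limit of 0.5. The 11 genes (red) lie in the lower left corner by the rule, where *pmg* stands alone at 0.0463 and 0.129, and the others lie between 0.240 and 0.498.

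Near the limits, NCU03565 was just inside with a *cpc-1Δ* ratio of 0.498, NCU06880 with a WT ratio of 0.496 and *gcy-3* with a *cpc-1Δ* ratio of 0.492. Just outside were NCU04932, with a WT ratio of 0.503, NCU04699, with a *cpc-1Δ* ratio of 0.507, and NCU08194, with a *cpc-1Δ* ratio of 0.512. Nothing separates these 2 sets of 3 genes but the limit. Levels in the 2% glucose medium of WT ranged from 8.98 for NCU03696 to 1835 for *adh-1*. The 11 genes included some of the most abundant mRNAs, with a median over the 15 libraries of 143.7 beside 28.1 for all genes passing the filter.

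In the NC12 annotation table, 5 of the 11 have a gene symbol, beside 1118 of the 9730 genes measured. They are *pmg*, *gcy-3*, *adh-1*, *ccg-1* and *met-8*. The other 6 are known here by locus tag alone, and no function is given for them. None of the 11 lies next to another. All their 22 neighbours were in the files, 9 passed the filter, and 0 of these 9 had a ratio of 0.5 or less in either strain. Of the 4074 genes, 5.55% had such a ratio in WT and 2.23% in *cpc-1Δ*, and with 9 neighbours a count of 0 is near these shares.

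Among the 11, *pmg* (NCU03509), which encodes the general amino acid permease, had the deepest fall. In WT, it was at 46.3, 49.2 and 51.0 in the 3 libraries in 2% glucose and at 2.71, 1.06 and 3.01 with 3-AT. In *cpc-1Δ*, the values were 80.2 and 82.4 without 3-AT and 9.79, 11.4 and 10.2 with it. Every library with 3-AT was far below every library without it, and the means were 21.6-fold lower in WT and 7.77-fold lower in *cpc-1Δ*. In 0.1% glucose medium, *pmg* was at 213 and 197 in WT, 4.19 times its level in 2% glucose, whereas in *cpc-1Δ* it was at 90.6 and 92.1, 1.12 times that level. WT mycelia thus covered a range from 2.26 with 3-AT to 204.8 in low glucose for this single mRNA. With 3-AT, the transgenic strain had 2.52, 3.34 and 3.59, overlapping the WT values and below all 3 *cpc-1Δ* values.

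The strain comparisons for *pmg* changed direction with the medium. With 3-AT, *pmg* was above its WT level in *cpc-1Δ*, by a log2 fold change of 1.87 ± 0.20 (SE, limma, Benjamini-Hochberg adjusted *P* = 1.36e-05). It was lower in *cpc-1Δ* in 0.1% glucose, by -1.15 ± 0.24 (SE, limma, Benjamini-Hochberg adjusted *P* = 0.00231). In 2% glucose it was higher by 0.73 ± 0.22 (SE, limma, Benjamini-Hochberg adjusted *P* = 0.0238), but adjusted *P* was between 0.0514 and 0.105 when either *cpc-1Δ* library or WT library 1 or 2 was left out, and 0.108 with a pseudocount of 0.1. The transgenic strain with 3-AT was lower than *cpc-1Δ* by -1.47 ± 0.25 (SE, limma, Benjamini-Hochberg adjusted *P* = 0.00357), and its difference from WT did not pass the threshold (0.40, 95% interval -0.18 to 0.98).

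Other permease genes of this organism, looked up after the values of *pmg* were seen, did not meet the limits. *mtr* (NCU06619), the gene of the neutral amino acid permease, had means of 341 without and 125 with 3-AT in WT, and of 273 and 319 in *cpc-1Δ*. The libraries did not overlap in either strain, and the direction was opposite. *pmb* (NCU05168), the gene of the basic amino acid permease, went from 36.7 to 31.0 in WT and from 68.0 to 47.7 in *cpc-1Δ*. In 0.1% glucose medium of WT, *mtr* and *pmb* were at means of 244 and 13.9, below 2% glucose, while *pmg* was above it.

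**Figure D2:**
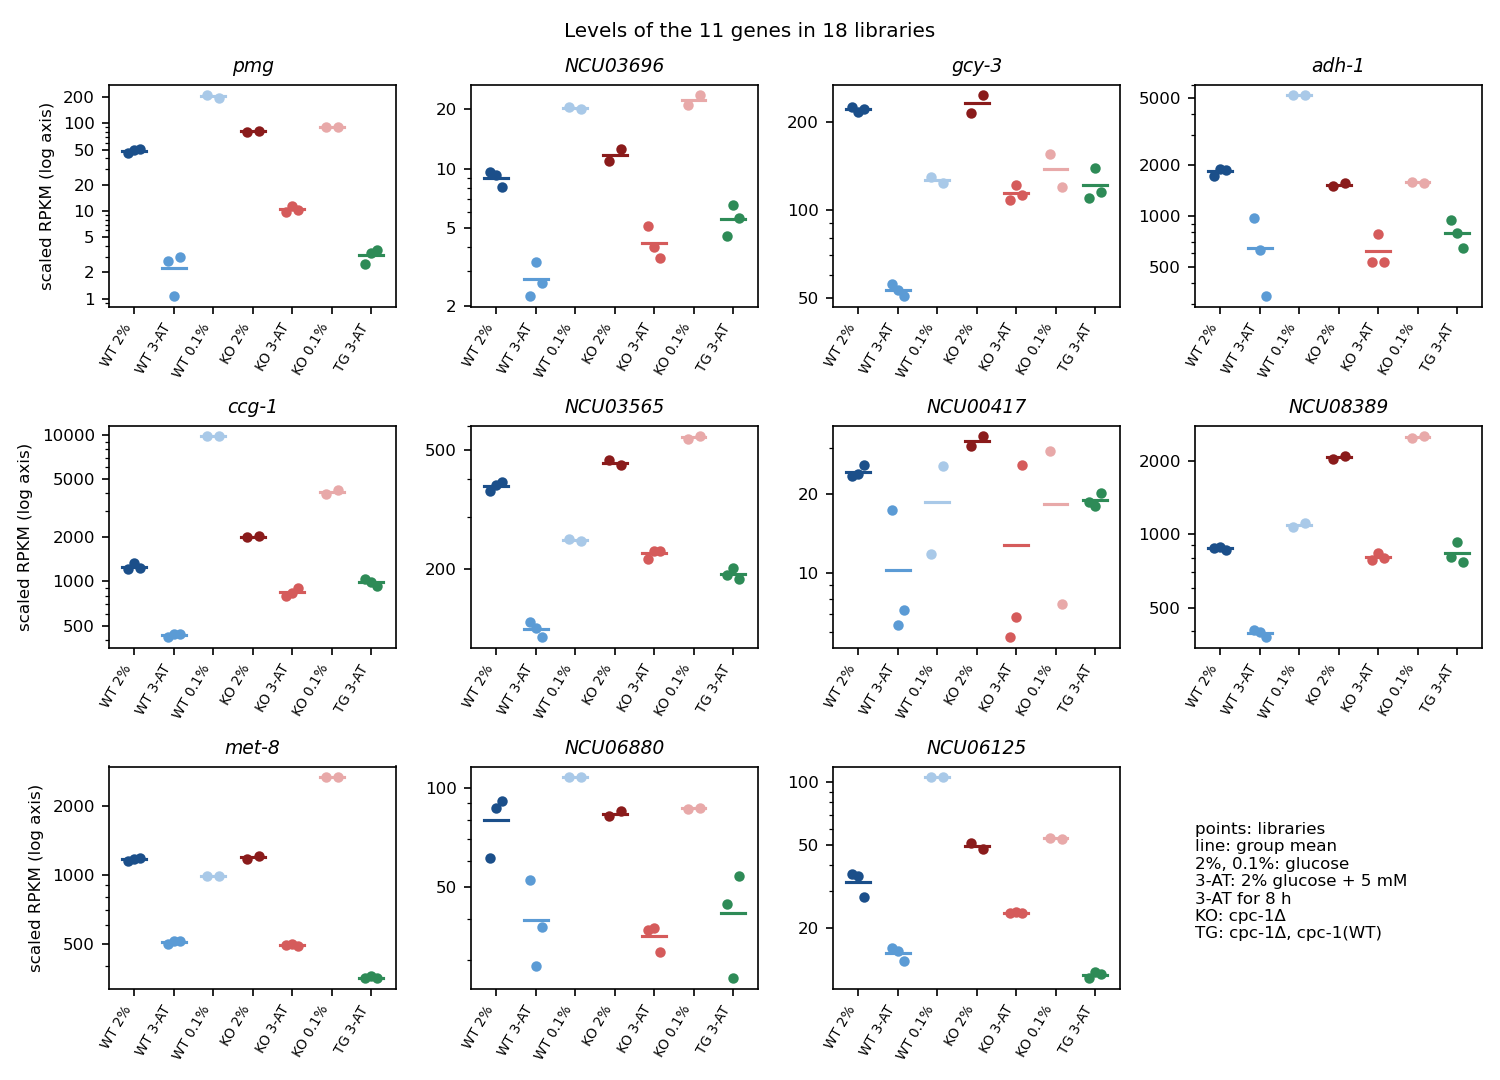
Scaled RPKM (y axis, log scale, a separate range for each gene) of the 11 genes in each of 18 libraries, by group (x axis), where points are libraries and lines group means. For all 11 genes, the libraries in 2% glucose with 3-AT lie below those in 2% glucose without it in WT and in *cpc-1Δ*. The rule chose the genes for lower means in these libraries, so that this separation is no result about the 11. The scatter within a group is widest for NCU00417, with an SD of up to 88.6% of the mean.

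*ccg-1* (NCU03753), a clock-controlled gene also known as a glucose-repressible gene, was the most abundant of the 11 over the 15 libraries. It was at 1213, 1328 and 1234 in WT in 2% glucose and at 414, 440.5 and 435 with 3-AT. In *cpc-1Δ*, it was at 2011 and 2028 without and 798, 832 and 895 with 3-AT. The ratios of means were 0.342 and 0.417, and *cpc-1Δ* was above WT in each medium with 2% glucose with no overlap of libraries. In 0.1% glucose medium the order was turned around, with 9809 and 9884 in WT and 3958 and 4188 in *cpc-1Δ*. These are 7.82 and 2.02 times the levels in 2% glucose.

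For *ccg-1*, the log2 fold change of *cpc-1Δ* against WT was 0.68 ± 0.06 (SE, limma, Benjamini-Hochberg adjusted *P* = 6.12e-06) in 2% glucose, 0.97 ± 0.05 (SE, limma, Benjamini-Hochberg adjusted *P* = 7.06e-08) with 3-AT and -1.27 ± 0.07 (SE, limma, Benjamini-Hochberg adjusted *P* = 4.37e-08) in 0.1% glucose. The promoter and 5′ UTR of this gene also drive the transgene of the transgenic strain. Whether reads of that shared 5′ UTR were counted to *ccg-1* is not known. In that strain, the level listed for *ccg-1* with 3-AT was 1040, 989.5 and 925. This was above WT by 1.19 ± 0.06 (SE, limma, Benjamini-Hochberg adjusted *P* = 3.35e-06) and above *cpc-1Δ* by 0.23 ± 0.06 (SE, limma, Benjamini-Hochberg adjusted *P* = 0.0363). The small difference from *cpc-1Δ* no longer passed when libraries were left out in 4 of 6 ways (*cpc-1Δ* library 1 or 2, or transgenic library 1 or 2, adjusted *P* from 0.0822 to 0.117).

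Of the conidiation and clock-controlled genes listed by symbol, 15 of 26 passed the filter, with median 3-AT ratios of 0.931 in WT and 0.786 in *cpc-1Δ*. Only *ccg-1* and *ccg-16* were at 0.5 or less in WT, and only *ccg-1*, *bli-3* and *con-8* in *cpc-1Δ*, so that *ccg-1* was the single gene of the list with both. *ccg-16* (NCU05495), another clock-controlled gene, had means of 2369 and 359 in WT but 2277 and 1789 in *cpc-1Δ*. In WT, 4 of the 6 conidiation markers were higher in every library in 0.1% than in 2% glucose medium, *con-6* (44.1 to 54.2 beside 0), *con-8* (172 to 181 beside 26.8 to 29.8), *con-10* (41.3 to 44.8 beside 1.45 to 2.94) and *con-13* (1.40 to 2.44 beside 0.134 to 0.532), while *fl* was lower and *eas* overlapped. In *cpc-1Δ*, *con-6* was higher in 0.1% glucose (4.25 to 5.28 beside 0) and the other 5 were lower, *con-8* at 38.9 to 41.3 and *con-10* at 5.07 to 6.99. The part of these markers in the low-glucose levels of *ccg-1* was not tested.

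*met-8* (NCU06512), a gene of methionine synthesis named for the methionine requirement of its mutants, had closely spaced values within each group. WT had 1153, 1174 and 1180 in 2% glucose and 496, 515 and 515 with 3-AT, and *cpc-1Δ* had 1176 and 1213 and 492, 497 and 486. The 2 strains overlapped in each of these media, and the fall was 2.30-fold in WT and 2.43-fold in *cpc-1Δ*. In 0.1% glucose medium, WT had 984 and 986, below 2% glucose, and *cpc-1Δ* had 2697 and 2679, above it.

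In 2% glucose, the log2 fold change of *met-8* in *cpc-1Δ* against WT was 0.03, 95% interval -0.06 to 0.12, and with 3-AT it was -0.05, 95% interval -0.13 to 0.03, neither past the threshold. Each interval leaves room for only a small difference. In 0.1% glucose, *met-8* was higher in *cpc-1Δ* by 1.45 ± 0.04 (SE, limma, Benjamini-Hochberg adjusted *P* = 4.94e-10), the largest difference upward of the 11 genes there. In the transgenic strain with 3-AT, *met-8* was at 351, 361 and 352, below all libraries of the other 2 strains. It was lower than *cpc-1Δ* by -0.47 ± 0.04 (SE, limma, Benjamini-Hochberg adjusted *P* = 0.000101) and differed from WT by -0.52 ± 0.04 (SE, limma, Benjamini-Hochberg adjusted *P* = 2.11e-05), where values as deposited gave 0.19 instead, on a scale on which the median of all genes passing the filter was 0.69.

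Of 60 amino acid synthesis genes listed by symbol, 51 passed the filter, and with 3-AT 21 of them were at least 2 times higher in WT (6.55% of the 4074 genes) and 0 in *cpc-1Δ* (2.92%). The medians of the list were 1.79 in WT and 0.824 in *cpc-1Δ*. *met-8* was the only one at 0.5 or less in WT, and in *cpc-1Δ* only *cys-18* (0.415), *met-8* and *arg-2* (0.473) were. With 3-AT, 44 of the 60 genes were lower (beside 24.8% of all genes tested) and 6 higher (beside 25%) in *cpc-1Δ* than in WT, while *met-8* passed in neither direction. Against *cpc-1Δ*, 35 of 59 tested genes of the list were higher (beside 16.1% of all genes tested) and 8 lower (beside 13%) in the transgenic strain, and *met-8* was among the 8.

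*adh-1* (NCU01754), an alcohol dehydrogenase gene of the step between acetaldehyde and ethanol, was at 1735, 1886 and 1884 in WT in 2% glucose and at 977, 627 and 334 with 3-AT. In *cpc-1Δ*, it was at 1495 and 1570 and 537, 779 and 534. No library with 3-AT reached one without it, but the WT libraries with 3-AT were far apart, with an SD of 49.8% of the mean. The WT mean in 0.1% glucose medium was 2.84 times that in 2% glucose (5232 and 5203), and *cpc-1Δ* stayed at 1582 and 1577, 1.03 times. The *cpc-1Δ* level in 0.1% glucose was lower than that of WT by -1.72 ± 0.37 (SE, limma, Benjamini-Hochberg adjusted *P* = 0.00271).

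Values of *adh-1* are sums of 2 transcripts. Transcript T0 was at 695 to 783 in WT in 2% glucose and at 0 in 2 of the 3 WT libraries with 3-AT, 2 of the 3 *cpc-1Δ* libraries and 1 of the 3 transgenic libraries. Transcript T1, which carried more of the total, had means of 1085 and 509 in WT and 947 and 509 in *cpc-1Δ*. T1 itself ranged from 334 to 627 in the WT libraries with 3-AT. On T1 alone, the ratios were 0.470 in WT and 0.538 in *cpc-1Δ*, so that *adh-1* would not have met the limit in *cpc-1Δ*. On T1 alone, the difference of *cpc-1Δ* from WT in 0.1% glucose was -1.75 (limma, Benjamini-Hochberg adjusted *P* = 8.41e-05). On T0 alone, it was -1.68 and did not pass the threshold (limma, Benjamini-Hochberg adjusted *P* = 0.741). T0 was at 1813 to 1903 in WT and 579 to 581 in *cpc-1Δ* in that medium. The fit shares its estimate of the spread among all groups, including those with T0 at 0 in some libraries. With 3-AT, the transgenic strain had 943, 797 and 648. In the remaining comparisons *adh-1* did not pass the threshold, with -0.26, 95% interval -1.02 to 0.50 for *cpc-1Δ* against WT in 2% glucose, 0.04, 95% interval -0.64 to 0.72 with 3-AT, and for the transgenic strain 0.37, 95% interval -0.51 to 1.26 against *cpc-1Δ* and 0.42, 95% interval -0.46 to 1.30 against WT. These intervals are wide, and no equality of the strains is read from them.

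*gcy-3* (NCU04510), named like the glycerol dehydrogenase gene *gcy-1*, had a lower 3-AT ratio in WT than in *cpc-1Δ*. In WT, it was at 225, 216 and 222 in 2% glucose and 55.7, 53.1 and 50.5 with 3-AT, a 4.16-fold lower mean. In *cpc-1Δ*, it was at 215 and 248 and 108, 122 and 112, a 2.03-fold lower mean. Without 3-AT the strains overlapped, whereas with it each *cpc-1Δ* library was above each WT library, by a log2 fold change of 1.09 ± 0.09 (SE, limma, Benjamini-Hochberg adjusted *P* = 2.42e-06). The transgenic strain, at 109.5, 139 and 115, overlapped *cpc-1Δ* (0.08, 95% interval -0.14 to 0.31) and was above WT by 1.17 ± 0.10 (SE, limma, Benjamini-Hochberg adjusted *P* = 3.18e-05). In 0.1% glucose medium, *gcy-3* was lower than in 2% glucose in both strains, with 130.0 and 123 in WT and 155 and 119.6 in *cpc-1Δ*, and the strains overlapped. *gcy-1* itself (NCU04923), looked up afterwards, had means of 325 and 325 without and with 3-AT in WT, and 168 and 136 in *cpc-1Δ*.

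Among the genes without a symbol, NCU08389 and NCU03565 had the higher level in *cpc-1Δ* in all 3 media. For NCU08389, WT had 875, 885 and 863 in 2% glucose, 406, 397 and 377 with 3-AT and 1072 and 1108 in 0.1% glucose. *cpc-1Δ* had 2038 and 2086, 779.5, 837 and 796 and 2468 and 2532 in the same order. The libraries of the strains did not overlap in any of the media, and the log2 fold changes for NCU08389 were 1.24 ± 0.05 (SE, limma, Benjamini-Hochberg adjusted *P* = 8.76e-09), 1.03 ± 0.04 (SE, limma, Benjamini-Hochberg adjusted *P* = 6.47e-09) and 1.20 ± 0.05 (SE, limma, Benjamini-Hochberg adjusted *P* = 1.16e-08). The 3-AT ratios, 0.450 in WT and 0.390 in *cpc-1Δ*, and the low-glucose ratios, 1.25 and 1.21, lay close together. The transgenic strain with 3-AT, at 803, 929 and 768, overlapped *cpc-1Δ* (0.05, 95% interval -0.13 to 0.23) and was above WT by 1.08 ± 0.08 (SE, limma, Benjamini-Hochberg adjusted *P* = 1.58e-05). It was the only one of the 11 for which the transgenic strain with 3-AT overlapped WT without it. The gene has 2 transcripts, of which T1 was listed at 0 in all 18 libraries.

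NCU03565 was at 366, 384 and 392 in WT in 2% glucose, at 133, 128 and 119 with 3-AT and at 252 and 248 in 0.1% glucose. In *cpc-1Δ*, it was at 463 and 445, 217, 231 and 231 and 544 and 559. Low glucose thus went with a lower level in WT and a higher one in *cpc-1Δ*, as for *met-8*. *cpc-1Δ* exceeded WT by 0.25 ± 0.06 (SE, limma, Benjamini-Hochberg adjusted *P* = 0.00459) in 2% glucose, 0.83 ± 0.05 (SE, limma, Benjamini-Hochberg adjusted *P* = 1.54e-07) with 3-AT and 1.14 ± 0.06 (SE, limma, Benjamini-Hochberg adjusted *P* = 7.13e-08) in 0.1% glucose. The transgenic strain was at 192, 203 and 186, between the other strains. It was above WT by 0.61 ± 0.06 (SE, limma, Benjamini-Hochberg adjusted *P* = 9.31e-05) and differed from *cpc-1Δ* by -0.22 ± 0.06 (SE, limma, Benjamini-Hochberg adjusted *P* = 0.0299), a difference of 0.01 in values as deposited and one that no longer passed when *cpc-1Δ* library 2 or 3 or transgenic library 1 or 3 was left out (adjusted *P* from 0.0834 to 0.0939).

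NCU06125 differed in the same direction as *pmg* in the 4 strain comparisons that *pmg* passed. WT had 36.4, 35.5 and 28.3 in 2% glucose, 16.1, 15.6 and 13.9 with 3-AT and 106 and 106 in 0.1% glucose, and *cpc-1Δ* had 51.0 and 47.9, 23.5, 24.0 and 23.8 and 54.1 and 53.5. The low-glucose ratio was 3.18 in WT and 1.09 in *cpc-1Δ*. *cpc-1Δ* was higher than WT by 0.56 ± 0.10 (SE, limma, Benjamini-Hochberg adjusted *P* = 0.000793) in 2% glucose and 0.62 ± 0.09 (SE, limma, Benjamini-Hochberg adjusted *P* = 0.000115) with 3-AT, and lower by -0.97 ± 0.11 (SE, limma, Benjamini-Hochberg adjusted *P* = 1.67e-05) in 0.1% glucose. The transgenic strain, at 11.5, 12.3 and 12, was the lowest of the strains with 3-AT. It was lower than *cpc-1Δ* by -0.94 ± 0.06 (SE, limma, Benjamini-Hochberg adjusted *P* = 2.40e-05) and differed from WT by -0.32 ± 0.06 (SE, limma, Benjamini-Hochberg adjusted *P* = 0.00319), where values as deposited gave 0.34 against the median of 0.69.

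NCU03696 had the lowest mean of the 11 over the 15 libraries, at 10.5, and passed the minimum of 10 only through its 0.1% glucose libraries. It was at 9.61, 9.24 and 8.08 in WT in 2% glucose and 2.23, 3.34 and 2.60 with 3-AT, and at 11.0 and 12.6 and 5.09, 3.98 and 3.50 in *cpc-1Δ*. In 0.1% glucose medium, it was at 20.5 and 20.2 in WT and 21.1 and 23.8 in *cpc-1Δ*, above 2% glucose in both, and the strain difference did not pass (0.13, 95% interval -0.22 to 0.49). With 3-AT, *cpc-1Δ* exceeded WT by 0.48 ± 0.13 (SE, limma, Benjamini-Hochberg adjusted *P* = 0.0104), and adjusted *P* was 0.0539 in a fit of these 2 groups alone. The transgenic strain, at 4.55, 6.53 and 5.57, was above WT by 0.81 ± 0.17 (SE, limma, Benjamini-Hochberg adjusted *P* = 0.00439) and did not pass against *cpc-1Δ* (0.34, 95% interval -0.05 to 0.72).

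NCU00417 and NCU06880 gave no strain difference past the threshold in any medium. NCU00417 was at 23.4, 23.9 and 25.9 in WT and 30.6 and 33.4 in *cpc-1Δ* in 2% glucose. With 3-AT, it was at 17.4, 6.33 and 7.27 in WT and 5.70, 6.81 and 25.9 in *cpc-1Δ*, so that 1 library of each group was more than 2-fold above the others. Its WT libraries in 0.1% glucose, 11.8 and 25.7, overlapped those in 2% glucose, and those of *cpc-1Δ* were at 29.2 and 7.64. The transgenic strain had 18.8, 18.1 and 20.2. With 95% intervals such as -1.24 to 1.46 for *cpc-1Δ* against WT with 3-AT, a 2-fold strain difference in this gene was not detectable.

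NCU06880 was at 61.4, 86.8 and 91.2 in WT in 2% glucose and 52.3, 28.7 and 37.7 with 3-AT, and at 82.1 and 84.7 and 37.1, 37.6 and 31.8 in *cpc-1Δ*. In 0.1% glucose, WT had 108 and 107 and *cpc-1Δ* 85.9 and 86.9, and the transgenic strain with 3-AT had 44.3, 26.4 and 53.9. Its 95% interval for *cpc-1Δ* against WT with 3-AT was -0.55 to 0.32. Both genes lost their place among the 11 when WT library 2 with 3-AT was left out. NCU06880 also lost it without WT library 3 with 3-AT or WT library 2 or 3 in 2% glucose. NCU00417 also lost it without *cpc-1Δ* library 1 with 3-AT or WT library 2 in 0.1% glucose.

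Low glucose divided the 11 genes, as far as the rule let it, since a WT ratio of 0.5 or less had been excluded. In WT, 5 genes (*ccg-1*, *pmg*, NCU06125, *adh-1* and NCU03696) were at least 2 times higher in 0.1% than in 2% glucose medium, where 12.3% of the 4074 genes were. In *cpc-1Δ*, 2 genes (*met-8* and *ccg-1*) were, beside 2.97% of the 4074. NCU03696, with a mean of 10.5 over the 15 libraries, passed the minimum of 10 only through its 0.1% glucose libraries. It lost its place when any single one of these was left out, so that its place in the WT count is not independent of the rule. WT libraries in the 2 media did not overlap for 10 of the 11, NCU00417 being the exception, and those of *cpc-1Δ* did not overlap for any of the 11. The share of all genes without overlap was not computed. Groups of 2 or 3 libraries separate easily, so that these counts are no result about the 11. The median low-glucose ratio of the 11 was 1.35 in WT and 1.12 in *cpc-1Δ*, beside 0.965 and 1.03 over all genes passing the filter. Of the latter, 17.6% had a WT ratio of 0.5 or less, which the rule excluded from the 11, so that the WT medians are not of like sets. The 4 genes with the largest WT ratios all had a smaller ratio in *cpc-1Δ*, 2.02 for *ccg-1* and between 1.03 and 1.12 for *pmg*, *adh-1* and NCU06125. Being picked by their WT ratio, these genes were likely to have a smaller one in the other strain. Over the 4074 genes too, ratios of at least 2 were fewer in *cpc-1Δ* (2.97%) than in WT (12.3%). The difference between the WT and *cpc-1Δ* ratios was not tested, as the WT ratio entered the rule. Only the WT ratio sets a group of 2 libraries beside a group of 3. Of 5 sexual development markers listed, 3 were matched by symbol (*asd-1*, *poi-2* and *mfa-1*). Their summed scaled RPKM was 117 to 122 in 2% and 698 to 715 in 0.1% glucose medium in WT, and 143 to 144 and 127 to 135 in *cpc-1Δ*, where *poi-2* was at 0. Most of the WT sum in 0.1% glucose came from *mfa-1*, a pheromone precursor gene, at 675 to 698 beside 58.6 to 60.5 in 2% glucose, and in *cpc-1Δ* this gene was at 96.6 to 103 and 4.21 to 4.23. The part of these markers in the low-glucose results was not tested.

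**Figure D3:**
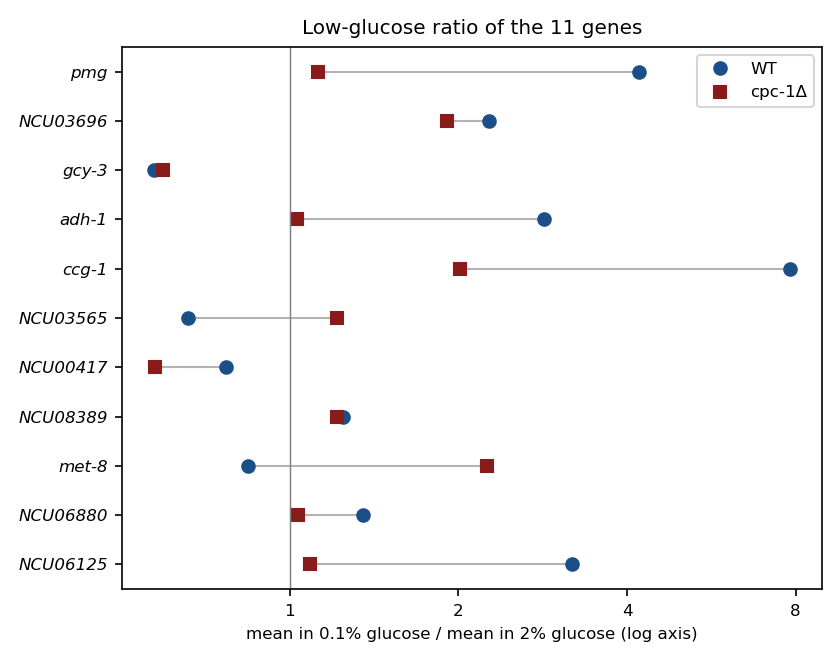
Group mean in 0.1% glucose medium divided by the mean in 2% glucose medium (x axis, log scale) for the 11 genes in WT (circles) and *cpc-1Δ* (squares), joined by a line for each gene. *ccg-1*, *pmg*, NCU06125 and *adh-1*, picked for the largest WT ratios, have WT ratios from 2.84 to 7.82 and *cpc-1Δ* ratios from 1.03 to 2.02. For *met-8* and NCU03565 the strains lie on opposite sides of 1.

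The comparison of *cpc-1Δ* with WT in 0.1% glucose sets the strains side by side in a medium that the rule used only as a limit. The transgenic strain was not measured in this medium. Loss of CPC-1 therefore cannot be told apart there from other differences between the strains. Of the 11 genes, *met-8*, NCU08389 and NCU03565 were higher in *cpc-1Δ* and *adh-1*, *ccg-1*, *pmg* and NCU06125 were lower, by 1.96- to 3.30-fold on the log2(scaled RPKM + 1) scale. The 3 higher genes stand beside 21.5% of the 9013 genes tested and 33% of those passing the filter, and the 4 lower genes beside 26.8% and 36.2%. These shares are near those of the background. The median log2 fold change was -0.20 over the 11 genes and -0.03 over those passing the filter.

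In 2% glucose and with 3-AT, whose libraries are the denominators and numerators of the rule, the strain comparison is not independent of the choice of genes. In 2% glucose, NCU08389, *pmg*, *ccg-1*, NCU06125 and NCU03565 were higher in *cpc-1Δ*, 5 genes beside 20% of all genes tested and 26.4% of those passing the filter, and 0 were lower (20.2% and 32.6%). At an unadjusted *P* under 0.05 by limma, 0 of the 11 were lower too, and a limma fit of the 2 groups alone called 1 lower, *adh-1*. With 3-AT, the same 5 genes and *gcy-3* and NCU03696 were higher, 7 genes beside 25% and 35.7%, and 0 were lower (24.8% and 34.8%), also 0 at an unadjusted *P* under 0.05 and 0 in a fit of the 2 groups alone. The median log2 fold change of the 11 genes was 0.36 and 0.62, beside -0.04 and 0.02 for all genes passing the filter.

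**Figure D4:**
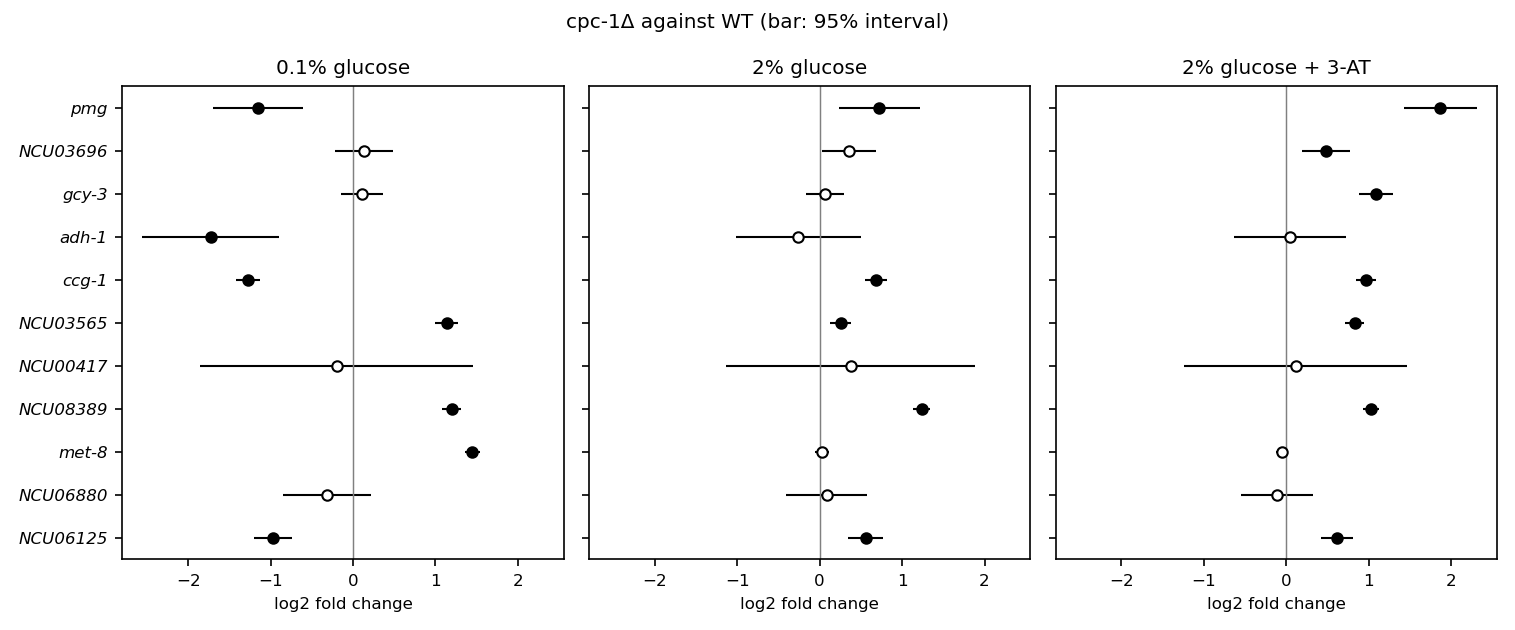
Log2 fold change of *cpc-1Δ* against WT (x axis, on log2(scaled RPKM + 1)) for the 11 genes in 0.1% glucose, 2% glucose and 2% glucose with 3-AT, where points are limma estimates, bars 95% intervals, and filled points passed an adjusted *P* of 0.05. Filled points lie on both sides of 0 in 0.1% glucose and to the right of 0 in the other media.

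Libraries of the transgenic strain were not used by the rule, but the strain was measured only with 3-AT, and its files also differed in their heading and in listing 50 to 61 genes a library without a number, so that strain and tabulation cannot be told apart. All 11 genes had a lower mean in it with 3-AT than in WT without 3-AT, and 4 were at 0.5 times or less. Against *cpc-1Δ* without 3-AT, 8 of the 11 were at 0.5 times or less, with a range from 0.0387 to 0.595, and all libraries of the 11 lay below. These values set 1 strain with 3-AT beside other strains without it and are no measure of the effect of 3-AT. The WT and *cpc-1Δ* libraries without 3-AT were the denominators of the rule, which favoured genes with high values in them. The share of all genes with such ratios, or with all libraries below, was not computed. These counts are therefore no result about the 11.

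Among strains with 3-AT, *pmg*, NCU06125, *met-8* and NCU03565 were lower in the transgenic strain than in *cpc-1Δ*, 4 genes beside 13% of the 8688 genes tested and 15.8% of those passing the filter. *ccg-1* was higher, 1 gene beside 16.1% and 25%. Against WT, *ccg-1*, *gcy-3*, NCU08389, NCU03696 and NCU03565 were higher, 5 genes beside 24.4% and 33.7%, and *met-8* and NCU06125 were lower, 2 genes beside 25.2% and 32.5%. The 2 comparisons share the transgenic libraries, and the *cpc-1Δ* and WT libraries with 3-AT were used by the rule, so that neither comparison is independent of the choice of genes.

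**Figure D5:**
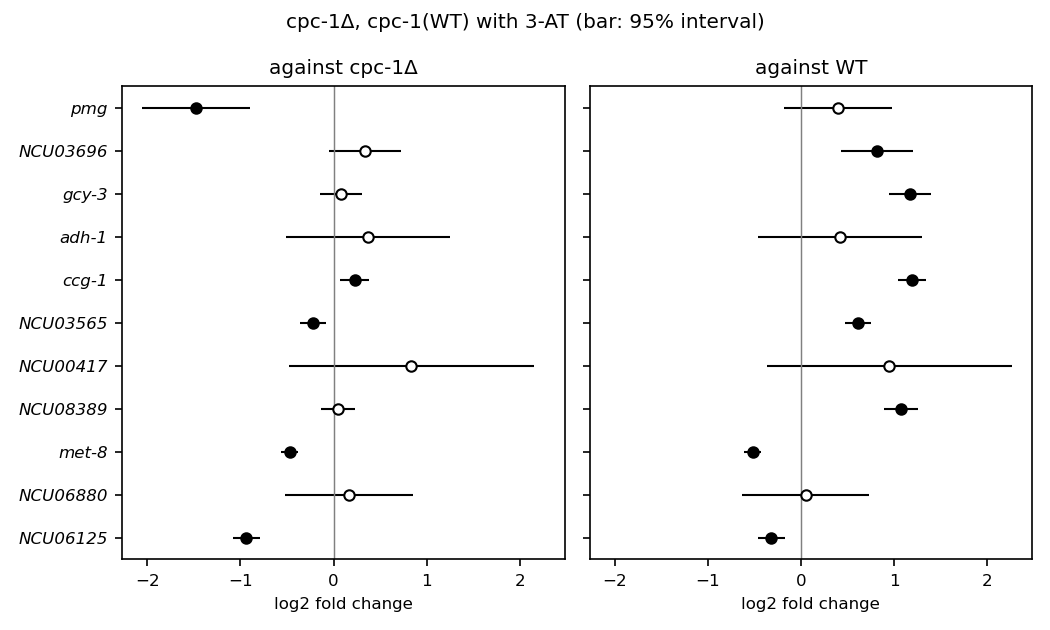
Log2 fold change of the transgenic strain against *cpc-1Δ* and against WT, all with 3-AT (x axis, on log2(scaled RPKM + 1)), for the 11 genes, where points are limma estimates, bars 95% intervals, and filled points passed an adjusted *P* of 0.05. *pmg*, NCU06125, *met-8* and NCU03565 lie left of 0 against *cpc-1Δ*, and *met-8* and NCU06125 also against WT.

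By annotated span in NC12, introns included, the 11 genes were shorter, with a median of 1572 bp beside 2413 bp for the genes passing the filter. Of the 22 neighbours, 5 overlap the span of one of the 11 (NCU04509 with *gcy-3*, NCU01753 with *adh-1*, NCU03566 with NCU03565, NCU00416 with NCU00417 and NCU06881 with NCU06880). NCU04509, NCU01753 and NCU03566 were listed at 0 in 2% glucose in WT and *cpc-1Δ*. Whether strand was used in the counting is not given in the sources used here, so that reads of overlapping pairs could not be told apart.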

How the data were processed

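mRNA-seq of 18 libraries of *N. crassa* mycelia was analyzed. The authors deposited RPKM values per annotated transcript and library. TopHat2 and Cufflinks are named in the submitters' processing notes, and versions, build and annotation are not given in the sources used here. The labels name TruSeq reagents and the study's methods NEBNext Ultra kits. The transgenic strain is labelled *cpc-1*(WT), but its files are headed GCN4WT, and the label was followed.

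Transcript values of a gene were added (9730 genes, with 7 of 10792 entries with a remark left out), and each library was divided by its median-ratio factor. Symbols came from the NC12 table of RefSeq, which matched 9729 locus tags. The genes described and all gene lists were chosen with earlier results of these data known. log2(scaled RPKM + 1) was tested with limma 3.58.1 in R 4.3.3, two-sided, with a coefficient for each group and *P* values adjusted by Benjamini-Hochberg over every gene above 0 in at least 1 library. *cpc-1Δ* was compared with WT on 15 libraries (9013 genes) and the transgenic strain with both on the 9 libraries with 3-AT (8688 genes), and 5 comparisons were tested at an adjusted *P* of 0.05. Fold changes on this scale understate those of low genes. The procedure was tested on simulated data.

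All 11 genes are named, with the genes nearest the limits, *cpc-1*, *ccg-1* and β-tubulin as references. Alternatives were values as deposited, upper-quartile scaling, a pseudocount of 0.1, a filter on low values (1 RPKM in all libraries of a group), other sets of libraries in the fit, a replicate block, single transcripts, a minimum mean of 20 and leaving out each library. The use of the transcript with the highest mean and a rule that admits values of 0 were chosen after seeing the data. Depth is unknown, so that no counting interval or detection floor was computed. Processing was done in Python 3.11.15 with pandas 2.3.3.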

Additional observations from a re-analysis of the deposited data

Results flagged for a closer look

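For *met-8*, every *cpc-1Δ* library in 0.1% glucose medium was above those in 2% glucose and every WT library below, with log2 ratios of means of 1.17 and -0.25, a difference of 1.42. For NCU03565, the log2 ratios were 0.28 in *cpc-1Δ* and -0.60 in WT, a difference of 0.89, with the libraries again on opposite sides. Both were picked out because the 2 strains moved in opposite directions, and the difference itself was not tested.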

How the results depend on the processing

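Of 31 strain differences past the threshold in single genes, 24 kept direction and side of the threshold under each alternative that gave a value. Values as deposited turned 3 of them around, NCU03565 against *cpc-1Δ* to 0.009, and *met-8* and NCU06125 against WT to 0.19 and 0.34, all in the transgenic strain. On that scale, the median log2 fold change of genes passing the filter between the *cpc-1Δ* and WT strains was 0.52 in 2% glucose, 0.47 with 3-AT and -0.02 in 0.1% glucose, and that of the transgenic strain was 0.24 against *cpc-1Δ* and 0.69 against WT. The counts of higher genes were then 9 in 2% glucose, 4 against *cpc-1Δ* and 10 against WT, with 0 lower against WT, and 111 genes met the rule, among them all 11. Over all genes, this scaling made 4247 higher and 664 lower in 2% glucose (1806 and 1821 in scaled values).

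*ccg-1* against *cpc-1Δ* was no longer higher, so that 0 genes were, with upper-quartile scaling, in a fit of the 2 groups alone and with a replicate block, which left 3 lower genes and changed no other call but NCU03565 there. Same-numbered libraries did not deviate together (*r* from -0.07 to 0.09 in 13 pairs), and they share only a number. When libraries were left out in turn, 0 to 2 genes were higher and 3 to 4 lower against *cpc-1Δ*. A fit of the 2 groups alone gave 1 lower gene in 2% glucose. The rule kept 8 to 11 of the 11 genes without 1 library, and 8 to 14 genes met it. It kept 8 without *cpc-1Δ* library 1 with 3-AT, where *gcy-3*, NCU03565 and NCU00417 were lost. In 2% glucose, *gcy-3* was also lost without *cpc-1Δ* library 2 and NCU03565 without *cpc-1Δ* library 1. With values of 0 admitted, 18 genes met the rule. Upper-quartile scaling kept all 11, a mean of at least 20 kept 9, the first transcript alone 9, and the transcript with the highest mean 10. No promoter window was read, so that this alternative was not run.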
